A study of Mus musculus with 4 samples.

Results

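E2F1 occupancy was measured by ChIP-seq at the promoters of 60 genes that act in mitosis and chromosome segregation, in mouse embryonic stem cells (ESCs) kept in serum or in 2i. ChIP-seq sequences the DNA that an antibody pulls down from fixed chromatin, here an antibody against the transcription factor E2F1. The 60 genes were taken from a fixed list, and a peak was a member when it overlapped the window from 1000 bp upstream to 500 bp downstream of any annotated transcript start of a listed gene. By this rule 10 of the 60 genes had a peak, with 1 peak each, so that 10 of the 4523 peaks were members. A further 4080 peaks overlapped the same window of another gene and served as the comparison (other promoter peaks), and 433 lay outside promoters. The rule used gene names and the positions of the authors' called peaks, and not the size of the signal or its change. The list itself was chosen with earlier results of these data known.

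The samples were 4 in number, 2 biological replicates for each of the conditions. Serum ESCs were kept in fetal calf serum with LIF, and 2i ESCs in a serum-free medium with LIF, the MEK inhibitor PD and the GSK3 inhibitor Chiron, and both were adapted for over 20 days. The labels name embryonic stem cells and give no ESC line, genotype or cell cycle phase for these samples. Peaks hold no RNA levels, so the cell type could not be checked against marker expression. Reads in peaks ranged from 248878 in serum replicate 1 to 710519 in 2i replicate 1, and member peaks held between 2 and 402 reads in a sample. Values are normalised read counts per peak, and the change is the log2 fold change of serum over 2i on the log2(value + 1) scale, which understates the change of weak peaks. To be called, a peak needed a difference of more than 1 on this scale, toward serum or toward 2i, and an unadjusted limma p under 0.05. An exact permutation test of 2 against 2 cannot give a two-sided p below 0.333, and limma borrows its estimate of the spread from all peaks.

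E2F1 belongs to the E2F family, which binds promoters of genes needed for DNA replication and entry into S-phase and is held in check by RB family proteins. Many genes of mitosis are expressed later, in G2-phase and M-phase, and are controlled by the MuvB core complex with B-MYB (the product of Mybl2) and by FOXM1. These factors act through a short element called the cell cycle genes homology region (CHR), often found together with CCAAT boxes that NF-Y binds. Some mitotic promoters carry E2F sites as well, and the E2F family, MuvB and FOXM1 form a cascade in textbook accounts of the cell cycle.

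Upstream sequences are printed first for 4 of the 10 listed genes with a member peak, whose upstream DNA lies in or beside that peak. These 4 are examples and do not stand for all 10. Over the wider promoter span described below, a CHR word and CCAAT were each present at 5 of the 10, Foxm1 and Racgap1 among them. They are read from the NCBIM37 (mm9) genome with the GENCODE M1 start nearest the peak centre, in the direction of the gene, 120 bases ending at the base before the start. Capitals mark the words searched on both strands, which were the 8-letter E2F words TTTCCCGC, TTTCGCGC, TTTGCCGC and TTTGGCGC, looser 7-letter E2F words, the CHR words TTTGAA and TTCGAA, and CCAAT. The 7-letter words, chosen after the data were seen, are TT, then C or G in each of 2 places, then CG, then C or G. They overlap the 8-letter words, and a word on the other strand appears as its reverse complement. Mybl2 lies at chr2:162880303-162880422 (+), Birc5 at chr11:117710445-117710564 (+), Wee1 at chr7:117265744-117265863 (+) and Anln at chr9:22193651-22193770 (-).
Mybl2: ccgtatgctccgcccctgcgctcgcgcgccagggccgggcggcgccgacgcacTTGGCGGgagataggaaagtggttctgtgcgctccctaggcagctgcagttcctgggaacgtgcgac
Birc5: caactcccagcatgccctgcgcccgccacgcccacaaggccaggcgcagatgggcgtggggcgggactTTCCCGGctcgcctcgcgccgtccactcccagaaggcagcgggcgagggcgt
Wee1: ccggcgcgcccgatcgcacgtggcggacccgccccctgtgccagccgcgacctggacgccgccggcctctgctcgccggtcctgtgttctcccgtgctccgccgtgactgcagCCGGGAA
Anln: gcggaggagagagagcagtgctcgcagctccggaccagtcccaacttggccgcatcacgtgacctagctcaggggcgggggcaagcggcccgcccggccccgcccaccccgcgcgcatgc
Mybl2, Birc5 and Wee1 each held 1 of the looser E2F words in this stretch, and Anln held none of the words.

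The same stretch is shown for 4 listed genes without a peak, to set beside them promoters of well-known mitotic genes. Their start is that of the longest coding transcript. Cdk1 encodes the kinase that drives entry into mitosis (chr10:68815687-68815806, -), Ccnb2 its cyclin partner B2 (chr9:70269362-70269481, -), Kif11 the kinesin that pushes spindle poles apart (chr19:37450773-37450892, +) and Top2a the topoisomerase that untangles sister chromatids (chr11:98885504-98885623, -).
Cdk1: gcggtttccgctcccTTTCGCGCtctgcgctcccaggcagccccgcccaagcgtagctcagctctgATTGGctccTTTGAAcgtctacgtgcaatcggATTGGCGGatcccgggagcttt
Ccnb2: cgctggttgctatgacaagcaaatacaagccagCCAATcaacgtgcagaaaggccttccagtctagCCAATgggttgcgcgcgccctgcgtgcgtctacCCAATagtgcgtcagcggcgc
Kif11: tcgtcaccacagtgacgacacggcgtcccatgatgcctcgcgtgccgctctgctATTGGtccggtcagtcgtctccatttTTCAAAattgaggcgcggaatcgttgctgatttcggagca
Top2a: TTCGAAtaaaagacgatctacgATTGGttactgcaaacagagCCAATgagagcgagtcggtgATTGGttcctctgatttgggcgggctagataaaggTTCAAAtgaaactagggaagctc
Every one of these 4 promoters held at least 1 CCAAT box here, and Cdk1 held an 8-letter E2F word although no peak of the file overlapped its window. They too are examples, and over the wider span CCAAT was present at 39 of the 50 listed genes without a peak.

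Listed genes with a peak made up 16.7% of the list (10 of 60, exact Clopper-Pearson 95% interval 8.29 to 28.5%). Among all protein-coding genes of the annotation the share was 19.0% (4227 of 22238). Counting only peaks centred between 1000 bp upstream and 100 bp downstream of a start, the shares were 8.33% (5 of 60) and 13.4% (2977 of 22238). A promoter rich in CpG, with a GC content of at least 50% and an observed over expected CpG ratio of at least 0.6, was found at 52 of the 60 listed genes. Within CpG-rich promoters, a comparison added after the data were seen, 19.2% of listed genes had a peak (10 of 52, interval 9.63 to 32.5%), against 37.0% of all other protein-coding genes (3543 of 9568, interval 36.1 to 38.0%). None of the 8 listed genes with other promoters had a peak, against 5.34% of other protein-coding genes of that kind. These shares are descriptions over genes, and their intervals cover counting error only.

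Genes with a peak are given by role, to be read beside the 16.7% of the whole list. The roles hold only 2 to 13 genes each, and differences between them were not tested. Both transcription factors of the late cell cycle, Foxm1 and Mybl2, had a peak. The group of cohesin and its cleavage, which includes separase (Espl1) and securin (Pttg1), had a peak at 3 of 6 genes (Smc3, Rad21 and Stag1), the central spindle and cytokinesis group at 2 of 6 (Racgap1 and Anln), condensin and chromosome compaction at 1 of 6 (Smc4), the chromosomal passenger complex at 1 of 4 (Birc5), and the mitotic kinases and entry genes at 1 of 11 (Wee1). The spindle checkpoint genes (Bub1, Bub1b, Bub3, Mad1l1, Mad2l1 and Ttk) had 0 of 6, which hold chromosomes back until all are attached to the spindle. The centromere and kinetochore genes, which build the attachment site of microtubules on chromosomes, had 0 of 13, from Cenpa, the centromeric histone, to Ndc80, Nuf2, Spc24 and Spc25, which form the microtubule-binding complex. The mitotic kinesins and spindle assembly genes (Kif11, Kif18a, Kif20b, Kif4, Kif2c and Tpx2) had 0 of 6. Together these 3 groups hold 25 of the listed genes, and they were put together because each had no peak.

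**Figure D1:**
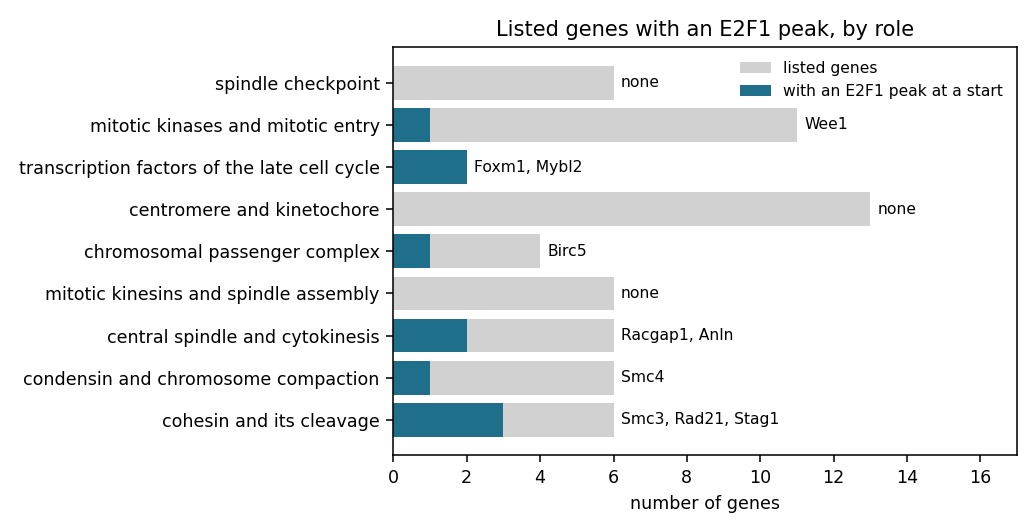
Number of listed genes in each role (grey bars) and number with an E2F1 peak at a transcript start (blue bars), with those genes named. Both transcription factor genes have a peak. The 3 roles without one hold 25 genes and were put together because each had none.

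The 50 genes without a peak included Aurka, Aurkb, Plk1, Plk4, Cdk1, Ccnb1, Ccnb2, Cdc20, Cdc25b and Cdc25c among the mitotic kinases and their regulators. For these 50 genes the nearest peak centre lay a median of 84186 bp from a transcript start. None had a peak centre within 5000 bp, 16 had one within 50000 bp, and none had a peak in the gene body. The nearest was that of Cdc25b, a phosphatase that activates CDK1, at 6939 bp, and that peak lay at the promoter of Cenpb, which encodes a centromere DNA-binding protein. The authors kept peaks that the replicates of a condition shared, and signal at promoters without such a peak was not analysed here.

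Both member and other promoter peaks were chosen by overlap with a window around a transcript start, which fixes that they lie near one. Within it, centres of members ranged from 111 bp upstream (Wee1) to 358 bp downstream (Rad21), with a median of 117.5 bp downstream against 53 bp for other promoter peaks. Centres were downstream of the start at 7 of 10 members (70%) and at 68.3% of other promoter peaks. The 4 peaks at condensin and cohesin genes, which encode rings that compact chromosomes and hold sister chromatids together, were all centred 145 to 358 bp downstream with the centre in an intron of an annotated transcript. Of other promoter peaks, 24.6% were centred at least 145 bp downstream. Median peak length was 491.5 bp for members and 487 bp for other promoter peaks, and the DNA around the peak centre had a median GC content of 72.6% and 75.6%.

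**Figure D2:**
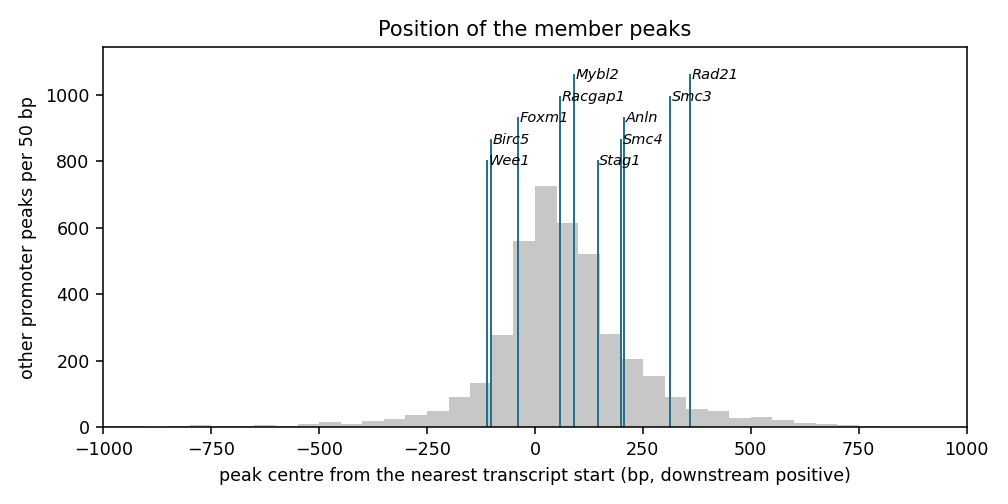
Distance of peak centres from the nearest transcript start in bp, for other promoter peaks (grey, number of peaks per 50 bp) and for the member peaks (blue lines, named). The members range from 111 bp upstream to 358 bp downstream, with the condensin and cohesin genes at 145 bp downstream or farther.

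Signal at the member peaks ran from 66.0 to 284 normalised reads per kb. Per kb of peak and averaged over the 4 samples, the median normalised read count was 166 at members (quartiles 86.7 and 211) and 128 at other promoter peaks (87.6 and 193). By this average the strongest member was Mybl2 at 284 per kb, with 10.3% of other promoter peaks above it, and the next were Foxm1 at 240 and Stag1 at 218. The order differed by condition. Per kb, Foxm1 stood above Mybl2 in 2i, and Stag1, Racgap1 and Rad21 stood above Foxm1 in serum. Racgap1 and Rad21 both stood at 188, Wee1 at 144 and Smc3 at 120. The weakest were Anln at 75.7, Birc5 at 70.7 and Smc4 at 66.0, with over 80% of other promoter peaks above each (84.0%, 87.9% and 91.2%). The order of neighbouring members was not tested, because replicates of a peak differed by up to 5.74-fold (Birc5 in serum).

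The serum against 2i change at members was small in most cases. Of the 10 member peaks 1 was called, Birc5, which was higher in 2i, and 9 were not. Across all peaks 10.3% were called (466 of 4523, 218 higher in serum and 248 in 2i), and among other promoter peaks 9.49% were called. These shares come from limma on normalised values, whereas the authors called differential peaks with DESeq2, so they are not the study's own. The split of calls between serum and 2i was 178 to 313 after rescaling to the same total and 232 to 166 after cyclic loess normalisation. Calls higher in 2i made up 5.48% of all peaks. An unadjusted p under 0.05 was reached at 2 members, Birc5 and Mybl2, and at 17.8% of all peaks. After Benjamini-Hochberg adjustment in limma no member was called, against 1.46% of all peaks, and adjusted p at members ranged from 0.241 to 0.916. Replicate values of serum and 2i did not overlap at 6 of 10 members, compared with 49.3% of all peaks and 48.8% of other promoter peaks. The called share of members thus stood near that of all peaks. The median log2 fold change was 0.33 over members, -0.05 over other promoter peaks and -0.03 over all peaks, and it was above 0 at 7 of 10 members and at 46.4% of other promoter peaks. The median normalised read count of members was 103 in serum replicate 1 and 79.6 in serum replicate 2, and 69.7 and 77.2 in 2i replicates 1 and 2. Serum replicate 1 was the high sample, and the other 3 lay close together. The median log2 fold change of members was 0.24 without it, 0.20 without 2i replicate 1, 0.46 without serum replicate 2 and 0.44 without 2i replicate 2.

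**Figure D3:**
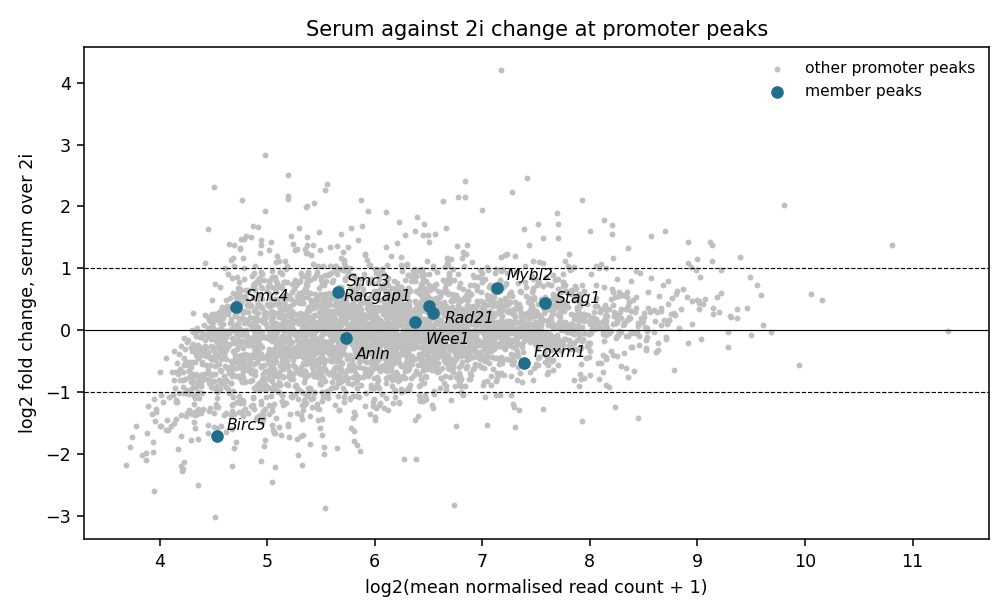
Log2 fold change of serum over 2i against mean signal on a log2 scale, for other promoter peaks (grey) and member peaks (blue, named), with dashed lines at the fold change used for calls. Only Birc5 among members lies past a dashed line, at -1.71.

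The transcription factors were the members with the highest signal per kb averaged over the 4 samples, and their differences ran in opposite directions. Mybl2 encodes B-MYB, which joins the MuvB core in S-phase and helps to switch on mitotic genes, and its peak (chr2:162880267-162880759, mm9) covered the transcript start, centred 90 bp downstream. The peak read 226 and 125 in serum replicates 1 and 2, and 96.9 and 112 in 2i replicates 1 and 2. Both serum values lay above both 2i values, but serum replicate 1 stood well above the other samples. The log2 fold change was 0.69 (SE 0.31), which missed the fold change threshold and had a limma p of 0.0472 and a Benjamini-Hochberg adjusted p of 0.271. It ranged from 0.26 to 1.12 with 1 replicate left out, and the peak was called without serum replicate 2.

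Foxm1 encodes a forkhead activator of genes of G2-phase and M-phase. Its peak (chr6:128312600-128313292) was centred 39 bp upstream of the start and also covered the start of 5930416I19Rik, which is transcribed the other way, so its signal cannot be assigned to either gene. It read 132 and 137 in serum and 225 and 169 in 2i. Both 2i values lay above both serum values. The log2 fold change was -0.53 (SE 0.26, limma Benjamini-Hochberg adjusted p = 0.302), short of the threshold, and stayed between -0.74 and -0.32 with 1 replicate left out. Foxm1 lies on chromosome 6, which 1 ESC line of the study carries in an extra copy, and whether that line was used here, and its part in the difference, was not tested.

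Cohesin, the ring that holds sister chromatids together until anaphase, had peaks at 3 genes. Stag1 encodes a subunit that binds the outside of the ring, and its peak (chr9:100543898-100544770) was the longest member at 872 bp. It read 228 and 210 in serum and 155 and 168 in 2i, with both serum values above both 2i values and replicates close together. The log2 fold change of 0.44 (SE 0.24) was not called (limma Benjamini-Hochberg adjusted p = 0.367), and its range was the narrowest of the members, at 0.38 to 0.50 with 1 replicate left out. Smc3, a core subunit of the ring (chr19:53674995-53675407, centre in an intron), read 61.0 and 57.2 in serum and 29.1 and 50.1 in 2i. The groups did not overlap, and 2i replicate 1 was the low sample, with a log2 fold change of 0.61 (SE 0.38, limma Benjamini-Hochberg adjusted p = 0.418), which was 0.23 without 2i replicate 1 and 0.996 without 2i replicate 2. Rad21 encodes the subunit that separase cuts at anaphase, and its peak (chr15:51822703-51823194) was centred in an intron. It read 101 and 98.2 in serum and 63.8 and 105 in 2i, so the groups overlapped, and its log2 fold change was 0.28 (SE 0.31) with all samples and -0.080 without 2i replicate 1. Smc1a, which encodes the partner of SMC3 in the ring, Espl1 (separase) and Pttg1 (securin, its inhibitor) had no peak.

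Condensin, which compacts chromosomes in mitosis, had a peak at Smc4 alone (chr3:68808939-68809321), and the same peak lay in the promoter window of Ift80. It was the weakest member per kb and read 34.8 and 22.9 in serum and 20.2 and 22.9 in 2i. The values of serum replicate 2 and 2i replicate 2 were nearly the same, and the log2 fold change was 0.38 (SE 0.45, limma Benjamini-Hochberg adjusted p = 0.717). It was 0.085 without serum replicate 1, 0.67 without serum replicate 2 and 0.64 after cyclic loess normalisation. Smc2, which pairs with SMC4, and the condensin subunit genes Ncapd2, Ncapg and Ncaph had no peak.

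Birc5 was the only called member and also one of the weakest. It encodes survivin, the subunit that brings the chromosomal passenger complex with Aurora B to centromeres. Its peak (chr11:117710307-117710620) was the shortest at 313 bp and was centred 102 bp upstream of the start, over the stretch printed above. It read 3.48 and 20.0 in serum and 43.1 and 21.9 in 2i, from 2 and 21 reads in serum and 77 and 21 reads in 2i. The 2 reads of serum replicate 1 lie under the floor of 3 reads, and their exact Poisson 95% interval runs from 0.422 to 12.6 normalised reads, for counting error only. Serum replicate 1 was low and 2i replicate 1 was high, whereas the second replicates differed little. The log2 fold change was -1.71 (SE 0.71) with a limma p of 0.0353 and a Benjamini-Hochberg adjusted p of 0.241, which ranged from 0.0518 to 0.722 over the other settings, replicates left out included. Leaving out serum replicate 1 brought it to -0.60 and ended the call. The call was also lost without 2i replicate 1 (-1.24), without 2i replicate 2 (-2.18) and after cyclic loess normalisation (-1.13). With a pseudocount of 8 the value shrank to -1.12, and the call was kept. Aurkb, Incenp and Cdca8, which encode the other subunits of the complex, had no peak.

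The central spindle and cytokinesis genes Racgap1 and Anln had peaks of unlike strength. Racgap1 encodes the GTPase regulator of the centralspindlin complex, which marks the division plane. Its peak (chr15:99481704-99482182, centred 57 bp downstream) read 113 and 90.6 in serum and 75.6 and 79.3 in 2i. Serum values lay above 2i values, with a log2 fold change of 0.38 (SE 0.28, limma Benjamini-Hochberg adjusted p = 0.507) that was 0.22 without serum replicate 1 and 0.54 without serum replicate 2. Anln encodes anillin, a scaffold of the contractile ring, and its peak (chr9:22193098-22193789) was centred in the 5′ UTR. It read 33.1 and 68.6 in serum and 39.7 and 67.8 in 2i, so replicate 2 was higher in both conditions, by 2.07-fold in serum and 1.71-fold in 2i. The difference between replicates was larger than that between conditions, at a log2 fold change of -0.12 (SE 0.43), whose sign changed when serum replicate 1 or 2i replicate 2 was left out.

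Wee1 encodes the kinase that holds CDK1 inactive before mitosis, and it was the only one of the 11 mitotic kinase and entry genes with a peak (chr7:117265469-117266038, centred 111 bp upstream). It read 105 and 68.6 in serum and 80.1 and 75.1 in 2i. The 2i values lay between the serum values, and the log2 fold change was 0.13 (SE 0.30, limma Benjamini-Hochberg adjusted p = 0.874).

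**Figure D4:**
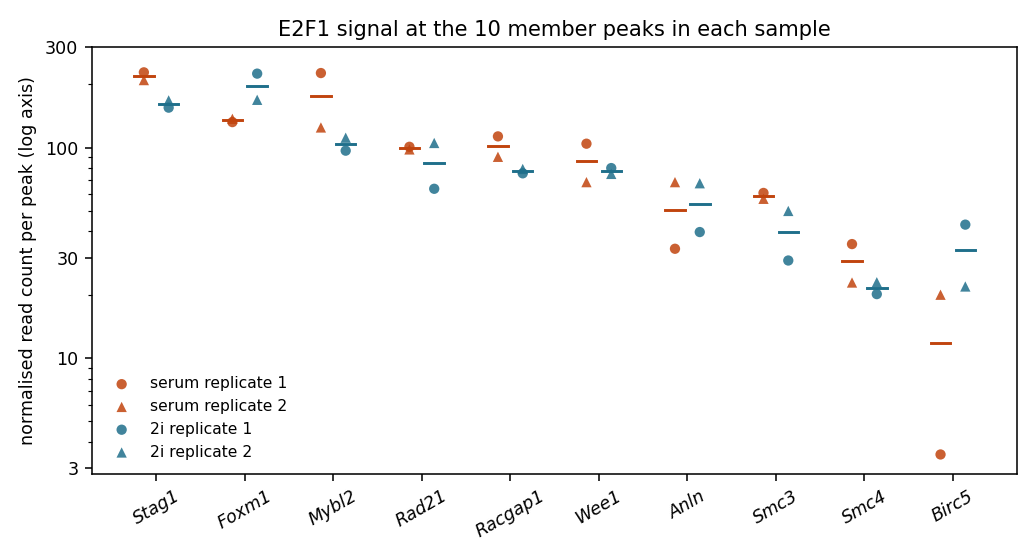
Normalised read count per peak on a log axis for each member, with serum samples in orange and 2i samples in blue, circles for replicate 1, triangles for replicate 2 and lines for means of 2. Birc5 has the widest spread, from 3.48 to 43.1, and the groups do not overlap at 6 of 10 members.

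**Figure D5:**
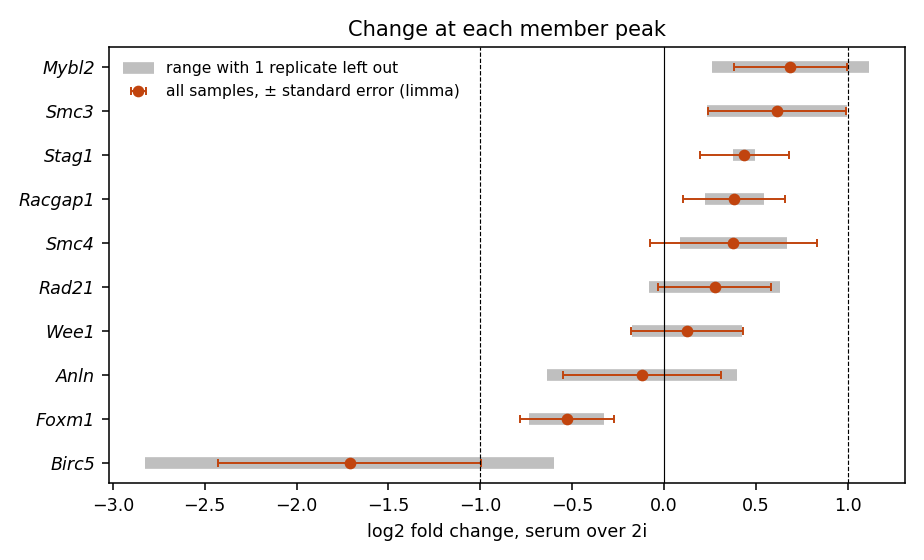
Log2 fold change of serum over 2i for each member with its standard error from limma (points and bars) and the range with 1 replicate left out (grey), with dashed lines at the fold change used for calls. Of the 10 members 5 stay above 0 and 2 below 0 throughout the grey range, and Anln, Rad21 and Wee1 change sign.

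Sequence words around the member peaks were described within 200 bp of the centre. An 8-letter E2F word was present at 1 of 10 members, Stag1, and at 5.02% of other promoter peaks. A looser 7-letter E2F word was present at 5 of 10 (Birc5, Foxm1, Mybl2, Stag1 and Wee1) and at 50.2% of other promoter peaks. A CHR word lay at 4 of 10 (Anln, Birc5, Foxm1 and Racgap1) and at 4.51% of other promoter peaks, and CCAAT at 2 of 10 (Foxm1 and Racgap1) and at 19.3%. Sites of 30 bases are shown for the 8-letter E2F word of Stag1, for the CHR of the pair with both CHR and CCAAT, and for the looser 7-letter E2F word beside that of Foxm1, in the direction of the gene, with the word in capitals. They lie at chr9:100544237-100544266 (+) for Stag1, chr6:128312962-128312991 (+) for the looser E2F word of Foxm1, chr6:128312969-128312998 (+) for its CHR and chr15:99482065-99482094 (-) for the CHR of Racgap1.
Stag1, 8-letter E2F: ggcggcgggggGCGGGAAAgggggaaatgc
Foxm1, looser 7-letter E2F: acgctccgccgGCGCCAAtttcaaacagcg
Foxm1, CHR: gccggcgccaatTTCAAAcagcggaacaac
Racgap1, CHR: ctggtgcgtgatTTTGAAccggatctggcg
At Foxm1 the looser E2F word, a CCAAT box and the CHR overlapped or followed each other directly at the transcript start. A match describes letters in a window and does not show that a factor binds there.

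Promoters were compared over the span from 250 bp before to 50 bp after the start of the longest coding transcript, whether or not they had a peak. A CHR word was found at 40 of 60 listed genes (66.7%) and at 17.2% of all other protein-coding genes (9.68% of those with CpG-rich promoters). CCAAT was found at 44 of 60 (73.3%) and at 37.5%, and both together at 33 of 60 (55%) and at 6.97%. An 8-letter E2F word was found at 6 of 60 (10%), at Cdk1, Kif18a, Ncapd2, Ncapg, Smc1a and Stag1, and at 2.79% of all other protein-coding genes (5.01% of those with CpG-rich promoters). It was present at 1 of the 10 listed genes with a peak (Stag1) and at 5 of the 50 without, 10% of each, against 4.60% and 2.36% of all other protein-coding genes with and without a peak. A looser E2F word was found at 22 of 60 (36.7%), against 21.4% of other protein-coding genes and 38.0% of those with CpG-rich promoters. A CHR word was present at 5 of the 10 listed genes with a peak and at 35 of the 50 without, and CCAAT at 5 of 10 and 39 of 50. A looser E2F word was present at 6 of 10 with a peak and 16 of 50 without. For these 3 kinds of word all other protein-coding genes ran the same way, with a CHR word at 9.27% of those with a peak and 19.1% of those without, CCAAT at 31.2% and 38.9%, and a looser E2F word at 34.8% and 18.3%. These counts are descriptions of the list, and no test was made of them.

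A second list of 119 further mitotic genes was read beside the 60. Of these 32 had a peak (26.9%, exact Clopper-Pearson 95% interval 19.2 to 35.8%), against 19.0% of all protein-coding genes, and Rcc1 had 2, giving 33 peaks. Within CpG-rich promoters the order was the other way, with 29.1% of the further genes (30 of 103) against 37.0% of protein-coding genes outside the 60, a share that includes the further genes. Peaks were found at 7 of 14 further condensin and cohesin genes (Nipbl and Mau2, which load cohesin, Wapal, Pds5a, Pds5b, Esco1 and Ctcf), at 8 of 20 further mitotic entry and exit genes (Ccna2, Cdc25a, Pkmyt1, Bora, Mki67, Ppp2r5d, Ppp1cc and Arpp19) and at 2 of 5 MuvB core genes (Lin9 and Lin54). They were found at 5 of 16 genes of the anaphase-promoting complex and its partners, the ubiquitin ligase that starts anaphase (Anapc11, Anapc13, Cdc16, Fzr1 and Ube2s), and at 8 of 32 further spindle, centrosome and cytokinesis genes (Ckap5, Haus4, Haus8, Ndel1, Rhoa, Kpna2, Ran and Rcc1). Further kinetochore and centromere genes had 2 of 32, Cenpb and Clasp2. No test was made of the differences between roles.

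Among the 33 peaks of the further genes 2 were called (6.06%, against 10.3% of all peaks), both higher in 2i (against 5.48% of all peaks). Ndel1, which encodes a regulator of dynein at the centrosome, read 3.48 and 7.63 in serum and 38.6 and 20.9 in 2i, from 2, 8, 69 and 20 reads. Its log2 fold change was -2.24 (SE 0.61, limma Benjamini-Hochberg adjusted p = 0.0963), and serum replicate 1 again lay under the floor of 3 reads. With a replicate block the limma Benjamini-Hochberg adjusted p was 0.0173, but the replicate numbers were not taken as a pairing. The call was lost without 2i replicate 1, at -1.81, and the value was -1.40 after cyclic loess normalisation and -1.45 with a pseudocount of 8. Anapc13, a small subunit of the anaphase-promoting complex, read 24.4 and 32.4 in serum and 86.8 and 51.1 in 2i, with a log2 fold change of -1.22 (limma Benjamini-Hochberg adjusted p = 0.150). Its call was lost without serum replicate 1 (-1.02) and without 2i replicate 1 (-0.84). The log2 fold change was above 0 at 15 of 33, and its median was -0.03, close to that of all peaks. The largest value toward serum was at Mki67, the proliferation marker Ki-67, at a log2 fold change of 0.96. It was short of the threshold with a limma p of 0.0080 and a Benjamini-Hochberg adjusted p of 0.135, and ranged from 0.79 to 1.14 with 1 replicate left out. By role, values above 0 numbered 5 of 7 for condensin and cohesin, 6 of 9 for the spindle, 3 of 8 for mitotic entry and exit, 1 of 5 for the anaphase-promoting complex, and 0 of 2 each for MuvB and for the kinetochore, against 47.8% of all peaks.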

How the data were processed

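E2F1 ChIP-seq was measured in 4 samples of mouse ESCs. Per the study's methods and the labels, BWA was used by the authors for alignment of the paired-end reads (mm9), and duplicates and regions on a blacklist were taken out. They ran MACS2 on each sample, kept peaks common to the replicates of a condition, merged both sets and obtained read numbers per merged peak with bedtools. Versions were not given in the sources used here. The authors deposited a signal per peak and sample, which is a read count divided by 1 size factor per sample. With a tolerance of 0.1 reads, 99.95% of the 18092 values corresponded to whole reads, each worth a constant per sample (1.74 and 0.953 in serum replicates 1 and 2, 0.560 and 1.04 in 2i replicates 1 and 2). Reads in peaks were 248878, 450420, 710519 and 395738 in that order, and the median peak held 35, 65, 111 and 58. The floor of 3 reads was 5.23, 2.86, 1.68 and 3.13. Values of exactly 2 at 9 entries, none at a member, were kept as deposited. Only peaks shared by replicates were kept by the authors, so sites found in a single replicate are outside the comparison.

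Peaks were placed on NCBIM37 with GENCODE M1, at coordinates as deposited (the base their starts count from is not given in the sources used here), and 14 peaks on unplaced contigs stayed outside promoters. Of the 119 further mitotic genes 113 matched by symbol and 6 by an older one. All peaks were tested with limma 3.58.1 in R 4.3.3 on log2(value + 1), with eBayes and a trend, no block and Benjamini-Hochberg adjustment over 4523 peaks, and the test was tried on simulated data. Python 3.11.15 (pandas 2.3.3, numpy 2.4.6, scipy 1.17.1, matplotlib 3.10.9) served for tables and figures. The rule for named peaks took the 2 highest per kb in each role, every called peak, the 5 largest changes in each direction and the peaks of Foxm1 and Mybl2, which covered all members, and the called peaks of the further genes. Mki67 was named after its value was seen. The members and lists were chosen with earlier results of these data known. Alternatives were another pseudocount (0.1 or 8), a minimum mean of 50, 3 scalings, no trend, a replicate block, leaving out chromosomes 6 and 8 or each replicate, other windows and other motif widths.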

Additional observations from a re-analysis of the deposited data

How the results depend on the processing

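The median log2 fold change of members stayed above 0 in every setting run, from 0.20 to 0.46. The number of members called was 1 as reported and 0 with a minimum mean of 50, which kept 7 members and left Birc5 out, or with cyclic loess normalisation, and ranged from 0 to 2 with 1 replicate left out. Over all peaks the count called was 188 of 2731 with a minimum mean of 50, against 466, and 378 to 674 with 1 replicate left out. With 1 replicate left out, the lone sample of a condition was assumed to vary like the others. Without chromosomes 6 and 8 the member called was still 1 of 9. Log2 fold changes with 1 replicate left out ran from -0.63 to 0.40 at Anln (reversed to 0.40 and 0.26), -0.080 to 0.63 at Rad21, -0.17 to 0.43 at Wee1, -2.83 to -0.60 at Birc5 and 0.26 to 1.12 at Mybl2. Over all settings at the named member peaks, Ndel1 and Anapc13, 138 values kept direction and call, 4 changed sign, 7 lost the call (4 of them at Birc5) and 1 gained it (Mybl2). The cause was not tested.

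Median signal of members was 85.9 per peak in place of 166 per kb, a change of unit, and 151 to 171 per kb with 1 replicate left out. Counting only peaks centred within 1000 bp upstream to 100 bp downstream of a start left 5 listed genes with a peak (8.33%, against 13.4% of all protein-coding genes). Within 100 bp of the peak centre, CHR was found at 2 members (1.62% of other promoter peaks), CCAAT at 1 (7.13%) and the 7-letter E2F words, added after the data were seen, at 4 (28.5%). Within 200 bp the 7-letter words were at 5 members against 1 for the 8-letter words.

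The labels number the replicates 1 and 2, but the departures from the condition mean of samples with a shared number correlated at 0.0483 over peaks, so the numbers were not taken as a pairing. With a replicate block 1 member and 504 peaks were called. The count tests listed among the alternatives (edgeR and DESeq2) were not run. Whole reads were recovered from the steps between low values and used for depth and the Birc5 interval, but 3 of the 4 columns missed the criterion set for a count test, a smallest value of 1 read. Depth was lowest in serum replicate 1, where the median peak held 35 reads.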
